A study of Mus musculus with 18 samples.

Results

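Fatty acid uptake and oxidation was followed through 37 listed genes of the mouse, taken by their symbols. The list was drawn up with earlier results of these data known. A gene was represented by its brightest probe set, the one with the highest mean over all 18 arrays, and 36 of the 37 had a probe set of their own among 19938 genes with one. Acsl3, a long-chain acyl-CoA synthetase, lay only on a probe set that names several genes, so no value is given for it. Outside the list, the synthetase gene Acsl1 had no probe set under its name. Cpt1b, of the carnitine shuttle, also lay only on a probe set that names several genes. Neither has a value. Each array measured total RNA of 1 tissue sample, and values are on the log2 scale, where a difference of 1 is a doubling. The 6 groups of 3 arrays were soleus KO, soleus WT, quadriceps KO, quadriceps WT, heart FG-4497 and heart vehicle.

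The KO mice carried a floxed Egln1 gene and a Cre recombinase of skeletal muscle, and the WT mice carried the recombinase with an unfloxed Egln1. Both were given tamoxifen for 3 days before tissues were taken, so the WT arrays share the recombinase and the drug. Egln1 encodes EglN1, the oxygen-dependent prolyl hydroxylase that marks the hypoxia-inducible factors for destruction. Numbers in the labels join 1 soleus and 1 quadriceps array and were read here as the numbers of 6 mice, which the labels do not state. The heart samples came from a second experiment in which wild-type mice received FG-4497, a compound that blocks EglN enzymes, by intraperitoneal injection at 50 mg/kg, or vehicle. All mice were backcrossed to C57BL/6 and fed chow. The labels do not give age, sex, the promoter that drives the recombinase or the time between FG-4497 and the harvest. The recombinase is described as specific to skeletal muscle, and the samples were whole muscles that also hold vessels, nerve and connective tissue.

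The median of an array ran from 6.68 to 6.81, and replicates of a group correlated across genes at r between 0.986 and 0.994. Egln1 itself was at 11.03 to 11.12 in KO soleus against 11.22 to 11.31 in WT soleus, and at 10.67 to 10.92 in KO quadriceps against 10.94 to 10.99 in WT quadriceps. These groups did not overlap, but neither difference was called (adjusted p = 0.44 in soleus and 0.47 in quadriceps), and a probe set that reads the whole transcript is a limited check of a deletion of part of the gene. The tissue labels held for the marker lists. The mean of 10 slow fibre genes was 13.22 to 13.39 in soleus, 7.62 to 9.42 in quadriceps and 11.33 to 11.45 in heart, and that of 10 cardiomyocyte genes was 11.98 to 12.14 in heart and 7.60 to 8.08 in the muscles. The replicates are labelled as biological. The p-values set a difference against the spread between replicates, pooled over the groups of a fit and moderated by limma.

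Long-chain fatty acids enter a muscle cell through surface proteins such as CD36, are bound in the cytosol by fatty acid binding protein, and are joined to coenzyme A by acyl-CoA synthetases. The carnitine shuttle carries the acyl group into the mitochondrion, a step held back by malonyl-CoA. There a repeating cycle of dehydrogenation, hydration, a second dehydrogenation and thiolysis cuts acetyl-CoA off the chain, and the electrons of its first step pass through the electron transfer flavoprotein to ubiquinone. Heart and slow fibres live largely on this pathway, and fast fibres rely more on glycogen and glucose.

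**Figure D1:**
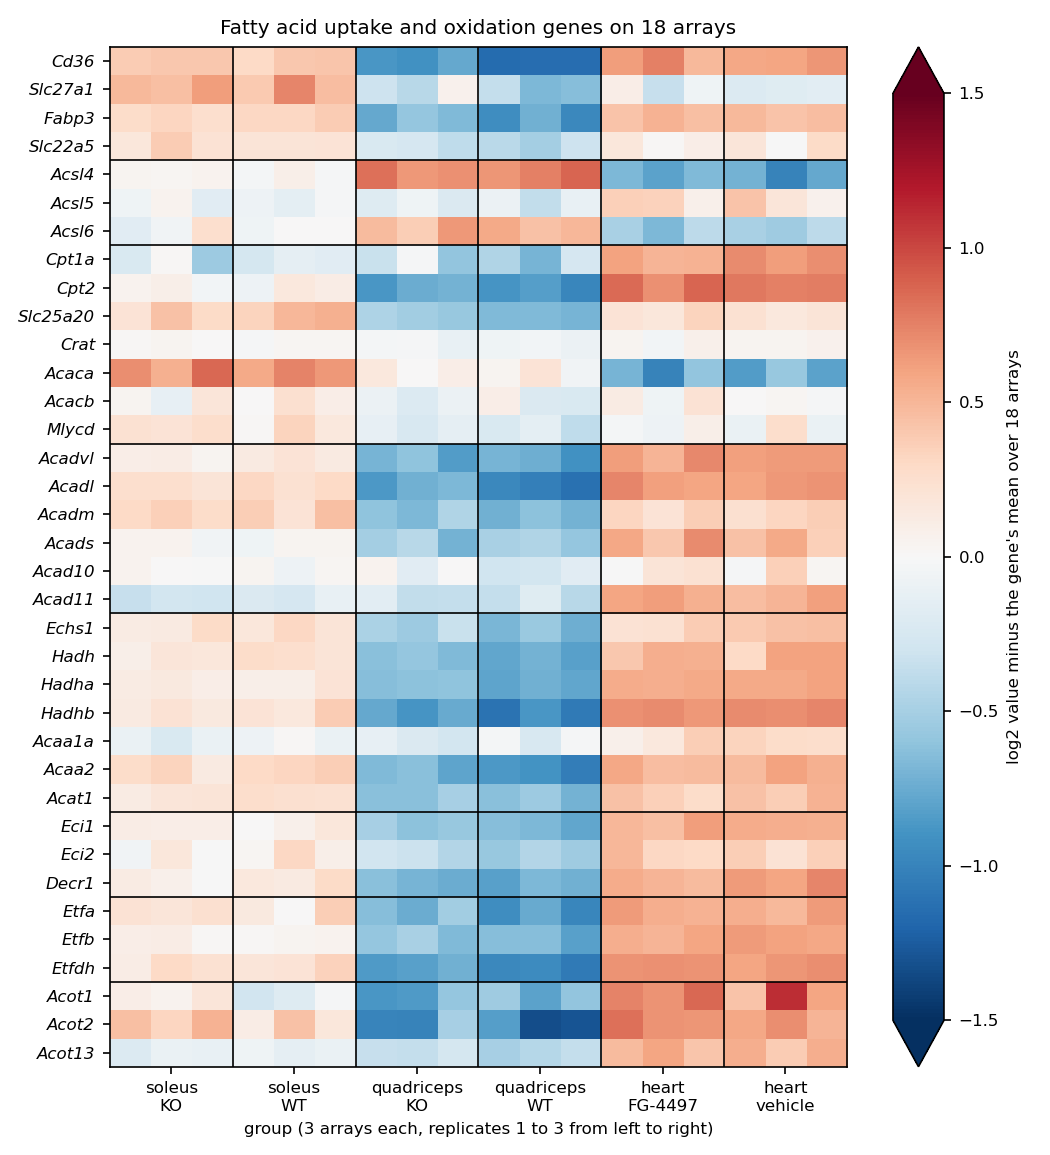
Each cell is 1 gene on 1 array, as the log2 value minus the mean of the gene over the 18 arrays (colour scale from -1.5 to 1.5), with genes in the order of the pathway and groups side by side. Most genes are lowest in quadriceps, Acsl4 and Acsl6 are highest there, and Acaca is lowest in heart. Differences between the paired groups of a tissue are small beside these.

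In quadriceps, the differences of the listed genes between KO and WT were small and most lay above 0, and 1 of them, Cd36, passed the test. Of the 36 genes, 30 lay above 0 in KO minus WT, against 43.1% of all 13318 genes tested, and their median log2 difference was 0.12, against -0.016 over all genes. A gene was called at a limma adjusted p under 0.05, with the adjustment over all genes tested, and 1 listed gene was called, Cd36, where 0.683% of all genes were called in either direction and 0.278% as higher. Unadjusted p was under 0.05 for 13 listed genes, all of them higher. Over all genes tested, 11.6% had such a p in either direction and 4.19% had it and were higher. In 12 listed genes, all higher, the KO and WT arrays did not overlap, and of all genes tested 5.66% were higher without overlap.

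Cd36, on chr5:17781690-17888959 (GRCm38.p6), encodes the main surface protein for long-chain fatty acid uptake. It read 11.60, 11.57 and 11.72 on the KO quadriceps arrays, against 11.32, 11.33 and 11.33 on the WT arrays. Every KO array was above every WT array, and the WT arrays lay almost on 1 point. The difference was 0.30 (SE 0.06), a fold of 1.23, with an adjusted p of 0.041. The call did not hold when any 1 of the 6 quadriceps arrays was left out: adjusted p was 0.11, 0.056 and 0.11 without KO replicates 1, 2 and 3, and 0.092, 0.14 and 0.12 without WT replicates 1, 2 and 3. Over all 16 alternatives it ran between 0.0097 and 0.14, with differences of 0.26 to 0.35 among those that lost the call.

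The other uptake genes also lay above 0 in quadriceps and were not called. Slc27a1, the fatty acid transport protein FATP1, read 10.26, 10.17 and 10.64 in KO and 10.22, 9.91 and 9.94 in WT, a difference of 0.33 (SE 0.12, adjusted p = 0.30). The groups overlapped, and KO replicate 3 alone stood well apart. Fabp3, the fatty acid binding protein of heart and muscle, averaged 12.30 ± 0.09 in KO and 12.09 ± 0.13 in WT (SD, n = 3 each), a difference of 0.20 with limma's adjusted p at 0.27. Slc22a5, the carnitine transporter of the cell surface, was at 0.12 (adjusted p = 0.59). The median of the 4 uptake genes was 0.25.

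Among the acyl-CoA dehydrogenases, which open each turn of the cycle, 5 of 6 lay above 0 in quadriceps. Acadl, the long-chain acyl-CoA dehydrogenase, read 10.83, 10.97 and 11.01 in KO quadriceps and 10.73, 10.66 and 10.57 in WT quadriceps. The groups did not overlap, the difference was 0.29 (SE 0.07), and adjusted p was 0.082, which passed the threshold only with a trended and robust variance prior (0.038). Acad10, another member of the acyl-CoA dehydrogenase family, was at 0.21 and Acadm, the medium-chain enzyme, at 0.10. Acadvl, the very-long-chain enzyme of the inner membrane, was at 0.07, Acad11 at 0.02 and Acads, the short-chain enzyme, at -0.04. Adjusted p was 0.22 for Acad10 and 0.68 for Acadm, and higher for the other 3.

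Of the 7 genes from hydration to thiolysis, 6 lay above 0 in quadriceps, with a median of 0.15. Acaa2, the mitochondrial thiolase, read 11.94, 11.97 and 11.80 in KO and 11.74, 11.70 and 11.56 in WT, a difference of 0.24 (adjusted p = 0.19) without overlap. Hadha and Hadhb, the subunits of the trifunctional protein that runs the later steps on long chains, were at 0.14 and 0.22 (adjusted p = 0.31 and 0.27). Hadha arrays did not overlap and Hadhb arrays did. Hadh, the dehydrogenase for shorter chains, was at 0.15 and Echs1, the short-chain hydratase, at 0.20. Acat1, the mitochondrial acetoacetyl-CoA thiolase, was at 0.05, and Acaa1a, a thiolase of peroxisomes, at -0.11 (adjusted p = 0.62).

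The electron transfer genes were all above 0, with a median of 0.20. Etfdh, the dehydrogenase that hands electrons to ubiquinone, read 10.68, 10.72 and 10.81 in KO quadriceps and 10.56, 10.59 and 10.47 in WT quadriceps, a difference of 0.20 (adjusted p = 0.27) without overlap. Etfa and Etfb, the subunits of the flavoprotein, were at 0.25 and 0.12 (adjusted p = 0.28 and 0.53). The auxiliary enzymes that handle double bonds, Eci2, Eci1 and Decr1, were at 0.16, 0.13 and 0.05. In the carnitine shuttle, Slc25a20, the carnitine-acylcarnitine carrier, was at 0.15 without overlap, Cpt1a at 0.15, Cpt2 at 0.12 and Crat, carnitine acetyltransferase, at 0.01. The genes of malonyl-CoA, which are the carboxylases Acaca and Acacb and the decarboxylase Mlycd, lay between -0.01 and 0.09, and the synthetases Acsl4, Acsl5 and Acsl6 between -0.05 and 0.03. None of these genes was called.

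The thioesterases split in sign. Acot2, which frees fatty acids from coenzyme A in mitochondria, read 10.39, 10.38 and 10.88 in KO quadriceps and 10.56, 10.05 and 10.09 in WT quadriceps, a difference of 0.32 (SE 0.15, adjusted p = 0.44) with overlap. Acot1, its cytosolic relative, was at -0.13 (adjusted p = 0.71), and all 6 quadriceps arrays lay below the level at which a gene was tested, so this difference has no firm size. Acot13 was at 0.11 (adjusted p = 0.53). Acot1 and Acot2 are near-identical copies, as are Acaa1a and its neighbour Acaa1b, and the probe sets may read part of the signal of the copy.

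Marker lists of other cells and fibres were read on the same quadriceps arrays. The mean of the 10 slow fibre genes, all measured, was 7.62, 9.42 and 8.27 in KO and 8.79, 7.98 and 7.63 in WT, with 0 of 10 called. With that mean as a covariate the Cd36 difference was 0.31, with an adjusted p of 0.060. The mean of 12 respiratory chain genes outside the list was 12.42, 12.40 and 12.32 in KO and 12.33, 12.35 and 12.34 in WT, and with it as a covariate the Cd36 difference was 0.35, with an adjusted p of 0.064. The mean of 9 adipocyte genes was 7.97 to 8.14 in KO and 7.63 to 8.14 in WT, with 0 of 8 tested genes called and a median difference of 0.25. The mean of 8 endothelial genes was 8.55 to 8.76 in KO and 8.53 to 8.69 in WT. Adipocytes and endothelium also carry Cd36, and the part of these cells in the result was not tested. In whole muscle, fewer cells of a type and less RNA per cell cannot be told apart.

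**Figure D2:**
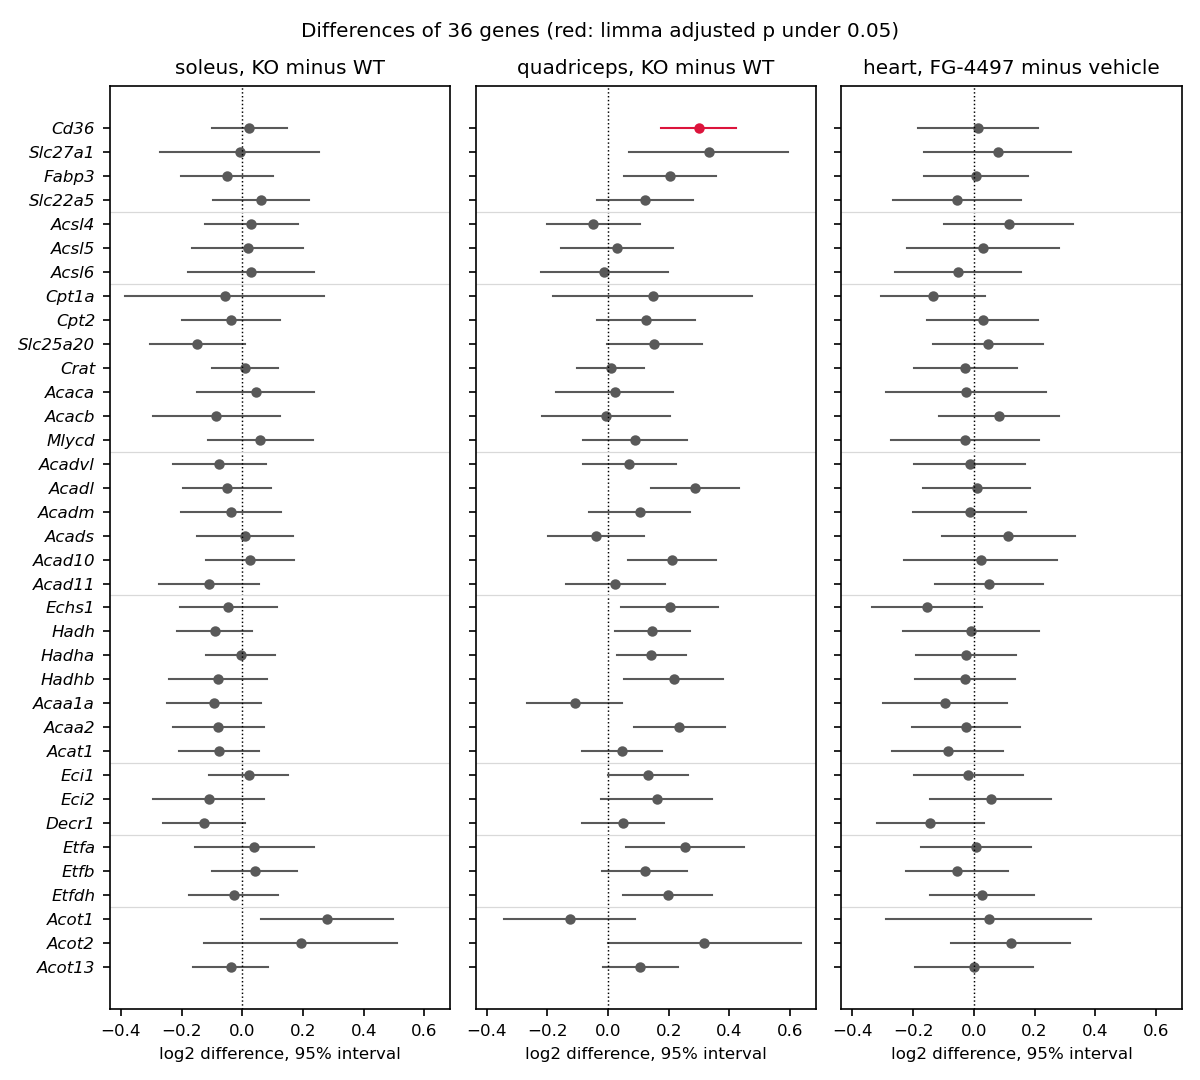
Points are log2 differences of the 36 genes with 95% confidence intervals, for soleus KO minus WT, quadriceps KO minus WT and heart FG-4497 minus vehicle (3 arrays per group), with genes in pathway order and red for an adjusted p under 0.05. In quadriceps 30 points lie above 0 and Cd36 is red, in soleus 15 lie above 0 and in heart 18.

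Promoters of 5 members are printed to show the sequence around their start sites, since these genes stand for the patterns in the arrays. Cd36 had the one call after Egln1 loss, Acadm and Etfdh stand for the genes that were higher in soleus and heart than in quadriceps, Hadhb faces its partner Hadha, and Acsl6 ran against the rest across tissues. The windows run from 250 bases before to 50 bases after a start site, 5′ to 3′ on the strand of the gene, from RefSeq on GRCm38.p6. Where a gene had several windows, those without the match were not printed, so a match in a printed window can come from this choice. The start site of the Cd36 window, 17835896, lies inside the gene, whose outer end on this strand is 17888959. They lie at chr5:17835847-17836146, minus strand for Cd36, chr5:30155003-30155302, plus strand for Hadhb, chr3:153944594-153944893, minus strand for Acadm, chr3:79628718-79629017, minus strand for Etfdh and chr11:54303574-54303873, plus strand for Acsl6. Capitals mark a match, on either strand, to AGGTCA, the half-site read by many nuclear receptors, in Cd36 and Acadm, to CCAAT, a common promoter box, in Etfdh, and to TCAAGGTCA, the element of estrogen-related receptors, in Acsl6. The window of Hadhb holds no match to AGGTCA and is all in lower case.
Cd36: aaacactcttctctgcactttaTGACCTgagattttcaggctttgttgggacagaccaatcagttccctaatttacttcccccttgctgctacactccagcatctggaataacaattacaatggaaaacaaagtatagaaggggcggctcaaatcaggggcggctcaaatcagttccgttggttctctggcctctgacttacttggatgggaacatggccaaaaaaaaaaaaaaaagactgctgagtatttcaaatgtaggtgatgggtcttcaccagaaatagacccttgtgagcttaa
Hadhb: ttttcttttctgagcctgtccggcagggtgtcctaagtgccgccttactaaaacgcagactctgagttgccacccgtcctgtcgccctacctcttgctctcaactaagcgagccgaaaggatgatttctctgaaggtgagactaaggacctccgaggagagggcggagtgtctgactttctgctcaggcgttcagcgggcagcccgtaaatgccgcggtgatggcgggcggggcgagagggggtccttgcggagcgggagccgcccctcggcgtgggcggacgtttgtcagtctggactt
Acadm: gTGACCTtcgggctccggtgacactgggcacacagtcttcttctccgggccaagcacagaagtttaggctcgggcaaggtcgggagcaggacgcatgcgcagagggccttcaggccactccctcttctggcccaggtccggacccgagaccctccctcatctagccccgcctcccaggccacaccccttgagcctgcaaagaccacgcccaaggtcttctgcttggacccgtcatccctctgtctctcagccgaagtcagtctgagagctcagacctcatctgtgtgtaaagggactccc
Etfdh: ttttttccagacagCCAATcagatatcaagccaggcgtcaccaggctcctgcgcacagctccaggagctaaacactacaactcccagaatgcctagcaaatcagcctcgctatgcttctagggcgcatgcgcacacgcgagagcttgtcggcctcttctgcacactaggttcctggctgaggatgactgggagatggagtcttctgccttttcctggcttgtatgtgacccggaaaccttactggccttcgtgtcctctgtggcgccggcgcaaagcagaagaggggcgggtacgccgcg
Acsl6: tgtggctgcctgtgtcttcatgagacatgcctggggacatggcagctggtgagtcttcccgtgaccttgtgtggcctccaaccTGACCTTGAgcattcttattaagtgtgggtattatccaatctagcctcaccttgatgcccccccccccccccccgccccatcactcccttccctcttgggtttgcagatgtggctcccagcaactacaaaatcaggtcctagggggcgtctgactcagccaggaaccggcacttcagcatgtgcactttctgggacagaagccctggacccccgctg

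The match began 228 bases before the start site of the printed window in Cd36, 249 in Acadm, 236 in Etfdh and 167 in Acsl6. Windows were found for 32 of the 37 listed genes, and Acaa2, Acat1, Acot13, Crat and Decr1 had none. AGGTCA was in a window of 7 of the 32 genes (Acacb, Acadm, Acadvl, Acsl6, Cd36, Cpt1a and Echs1), against 16.3% of all 32851 promoter windows. TCAAGGTCA, which contains AGGTCA, was in 1 of the 32, against 0.423% of windows. ACGTG, the core of the hypoxia response element, was in 3, Acacb, Acadvl and Slc27a1, against 19.6% of windows, and CCAAT in 17 against 37.4%. The counts are of genes, with 36 windows for the 32, and the shares are of single windows. A gene with several windows had more chances of a match, so counts and shares are not strictly alike. A match says that these letters are in the window and nothing about binding. Hadha and Hadhb start 273 bases apart on opposite strands of chromosome 5, at 30154980 and 30155253.

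In soleus, Egln1 loss changed none of the listed genes by the test. No listed gene was called, where 0.18% of all genes were, and 1 had an unadjusted p under 0.05, against 7.23% of all genes. The differences ran from -0.15 to 0.28, with 15 of 36 above 0, against 50.3% of all genes, and a median of -0.032, against 0.00095 over all genes. Groups did not overlap in 7 listed genes, against 12.2% of all genes. These were Acot1, which was higher in KO, and Acaa1a, Acad11, Acadvl, Acat1, Decr1 and Hadh, which were lower. Over all 13318 genes tested, 1631 did not overlap, and 853 of those were higher in KO.

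Acot1 read 6.79, 6.75 and 6.88 in KO soleus and 6.40, 6.50 and 6.67 in WT soleus, a difference of 0.28 (SE 0.10, adjusted p = 0.50). All 7 genes from hydration to thiolysis lay below 0, between -0.09 and -0.01. Hadh, for example, read 12.88, 12.98 and 12.96 in KO soleus and 13.07, 13.05 and 12.98 in WT soleus, a difference of -0.09 (adjusted p = 0.85). Slc25a20 had the lowest difference, -0.15 (adjusted p = 0.73), with 10.89, 11.12 and 10.98 in KO and 11.02, 11.19 and 11.22 in WT. Its arrays overlapped. Decr1, the dienoyl-CoA reductase, read 11.30, 11.25 and 11.17 in KO soleus and 11.33, 11.31 and 11.46 in WT soleus, a difference of -0.13 (adjusted p = 0.73). Acad11, of the acyl-CoA dehydrogenase family, read 9.79, 9.87 and 9.85 in KO soleus and 9.93, 9.89 and 10.03 in WT soleus, a difference of -0.11 (adjusted p = 0.87). In both, the lowest WT array lay barely above the highest KO array. Cd36 differed little, at 12.86, 12.88 and 12.88 in KO soleus and 12.77, 12.88 and 12.89 in WT soleus, with a difference of 0.02 and a 95% interval of -0.10 to 0.15. The intervals of all 36 genes lay within -0.39 to 0.51.

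Averaged over both muscles, KO minus WT called no listed gene, where 0.833% of all genes were called. Unadjusted p was under 0.05 for 4 listed genes, against 11.4% of all genes. Cd36 had the lowest adjusted p, 0.13, at 0.16 (SE 0.04). The difference of the effects, soleus minus quadriceps, was tested for every gene. It called no gene of either kind, 0 of 36 and 0 of 13318, with limma's adjusted p at 0.53 or above in the listed genes. Unadjusted p was under 0.05 for 14 listed genes, 13 of them lower, and of all genes tested 2.06% had such a p and were lower. Of the 36, 29 lay below 0 and 7 above, against 56.9% of all genes above 0, and the median was -0.14, against 0.018 over all genes. Acadl was at -0.34 (SE 0.09), Slc27a1 at -0.34, Acaa2 at -0.31, Slc25a20 at -0.30 and Cd36 at -0.28 (SE 0.07, adjusted p = 0.57). Acot1 was the one gene above 0 with an unadjusted p under 0.05, at 0.41. Its quadriceps arrays all lay below the tested level, so this value has no firm size. This contrast uses the same arrays as the effects in each muscle, so its values restate them. A different effect in the muscles was not shown by the test over all genes.

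In heart, FG-4497 gave no listed gene a difference that passed the test. No listed gene was called, where 1.77% of all 13431 genes tested were, and none had an unadjusted p under 0.05, against 10.6% of all genes. The split was 18 above 0 and 18 below, against 49.2% of all genes above 0, the median was -0.0033, against -0.0020 over all genes, and all differences lay between -0.15 and 0.12. Their 95% intervals lay within -0.34 to 0.38. Groups did not overlap in 3 listed genes, Cpt1a, Decr1 and Echs1, all lower with FG-4497, and of all genes tested 7.09% were lower without overlap.

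Echs1 read 11.49, 11.51 and 11.67 with FG-4497 and 11.68, 11.73 and 11.73 with vehicle, a difference of -0.15 (SE 0.08, adjusted p = 0.60). Decr1 read 11.73, 11.68 and 11.65 with FG-4497 and 11.81, 11.77 and 11.91 with vehicle, a difference of -0.14. Cpt1a, the carnitine palmitoyltransferase of the outer membrane best known from liver, read 9.62, 9.54 and 9.55 with FG-4497 and 9.74, 9.65 and 9.72 with vehicle, a difference of -0.14 (adjusted p = 0.64). In these genes the highest FG-4497 array lay just under the lowest vehicle array. Acot2 read 12.21, 12.05 and 12.04 with FG-4497 and 11.97, 12.08 and 11.89 with vehicle, a difference of 0.12 (adjusted p = 0.76). Acsl4, a synthetase that prefers arachidonic acid, read 8.09, 7.96 and 8.10 with FG-4497 and 8.05, 7.76 and 7.99 with vehicle, a difference of 0.12 (adjusted p = 0.81). Both overlapped. Cd36 read 13.10, 13.24 and 12.97 with FG-4497 and 13.06, 13.07 and 13.14 with vehicle, and Etfdh 12.21, 12.22 and 12.21 with FG-4497 and 12.12, 12.20 and 12.23 with vehicle. Neither separated the groups. The mean of the 36 genes was 10.93, 10.87 and 10.94 with FG-4497 and 10.90, 10.93 and 10.92 with vehicle.

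**Figure D3:**
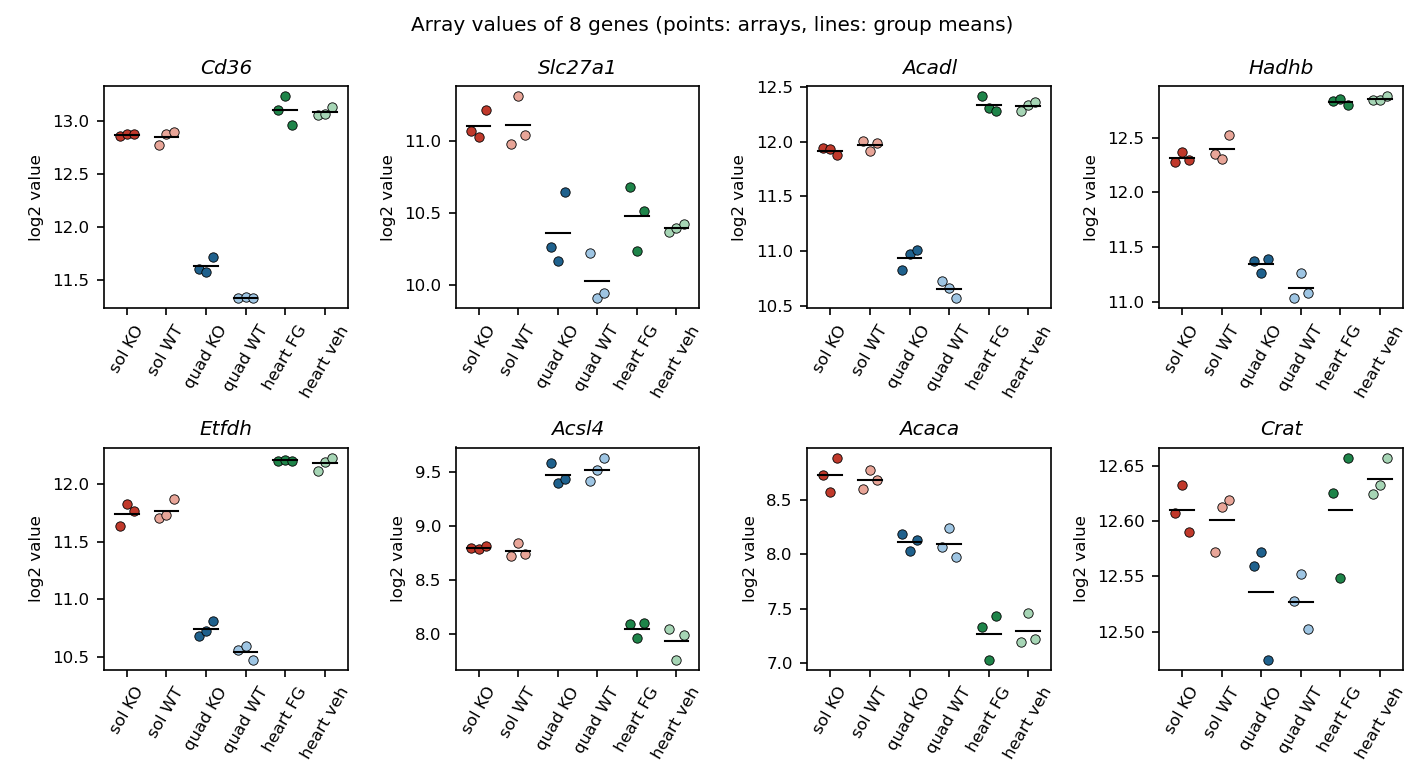
Each point is the log2 value of 1 array and each line a group mean, for 8 genes in soleus (sol), quadriceps (quad) and heart, with KO or FG-4497 (FG) left of WT or vehicle (veh). The quadriceps KO arrays of Cd36 lie at 11.57 to 11.72 above the WT arrays at 11.32 to 11.33, and Acsl4 and Acaca are lowest in heart. The vertical scale of Crat spans a small range.

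Between the muscles of WT mice the pathway differed far more than between genotypes. In WT soleus minus WT quadriceps, 31 of the 36 genes were called, 29 higher and 2 lower, where 45.7% of all genes were called, 21.3% as higher and 24.4% as lower. The median difference was 0.82, against -0.0080 over all genes. Soleus is a slow postural muscle and quadriceps a mostly fast one. The 10 slow fibre genes were all higher in soleus with a median of 5.96, 7 of 8 endothelial genes were higher, and the 12 respiratory chain genes were all higher with a median of 0.36. The part of fibre type, vessels and mitochondrial content in the pathway's difference was not tested.

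All 4 uptake genes were higher in soleus. Cd36 read 12.77, 12.88 and 12.89 in WT soleus and 11.32, 11.33 and 11.33 in WT quadriceps, a difference of 1.52 (SE 0.05) or 2.86-fold, with an adjusted p of 4.0e-10. Fabp3, at 13.28 to 13.35 in WT soleus (mean 13.30) and with a highest value of 12.24 in WT quadriceps (mean 12.09), was 2.31-fold higher, Slc27a1 2.12-fold and Slc22a5 1.52-fold. Fabp3 has a second probe set, and its WT arrays did not overlap on it either, at 13.13 to 13.23 in soleus and 11.79 to 11.98 in quadriceps.

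The enzymes inside the mitochondrion were higher in soleus as well. Acadl, with 12.01, 11.91 and 11.99 in WT soleus and 10.73, 10.66 and 10.57 in WT quadriceps, was 2.49-fold higher, Acadm 2.03-fold, Acadvl 1.92-fold and Acads 1.43-fold. Hadhb read 12.35, 12.31 and 12.53 in WT soleus and 11.03, 11.27 and 11.08 in WT quadriceps, 2.40-fold higher, against 1.86-fold for its partner Hadha. Acaa2, at 12.90, 12.92 and 12.96 in WT soleus and 11.74, 11.70 and 11.56 in WT quadriceps, was 2.39-fold higher, Hadh 2.01-fold, Echs1 1.84-fold and Acat1 1.83-fold. Etfdh, at 11.71, 11.74 and 11.87 in WT soleus and 10.56, 10.59 and 10.47 in WT quadriceps, was 2.35-fold higher, Etfa 2.09-fold and Etfb 1.66-fold. The auxiliary enzymes Decr1, Eci1 and Eci2 were 1.91-fold, 1.72-fold and 1.58-fold higher.

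In the carnitine shuttle, Slc25a20 was 2.19-fold higher in soleus, with 11.02, 11.19 and 11.22 in WT soleus and 10.03, 10.03 and 9.99 in WT quadriceps. Cpt2 was 1.96-fold higher, while Cpt1a (difference 0.27, adjusted p = 0.13) and Crat (0.07, adjusted p = 0.22) were not called. Cpt1b, a relative of Cpt1a, has no value. Acaca, the carboxylase that makes malonyl-CoA for synthesis, was higher by 0.59 on the log2 scale and Mlycd, which destroys malonyl-CoA, by 0.42. Acacb, the carboxylase of the outer mitochondrial membrane, was at 0.23 with an adjusted p of 0.044. Its call was lost in 8 of 15 alternatives, among them those without WT soleus replicate 2 (0.15) or 3 (0.099) and those without WT quadriceps replicate 2 (0.17) or 3 (0.18). Acot2, at 11.49, 11.82 and 11.56 in WT soleus and 10.56, 10.05 and 10.09 in WT quadriceps, was 2.62-fold higher, and Acot13 1.25-fold. Acot1 lay below the tested level on every quadriceps array, and its mean in WT soleus was 1.26-fold above that level.

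Of the 3 listed synthetases with a value, 2 were lower in soleus and 1 was not called. Acsl1 and Acsl3 have no value, so these genes do not speak for the activation step as a whole. Acsl4 read 8.73, 8.84 and 8.74 in WT soleus and 9.42, 9.52 and 9.64 in WT quadriceps, a difference of -0.75 (SE 0.06, adjusted p = 7.6e-07). Acsl6, a synthetase best known from brain, read 7.71, 7.78 and 7.77 in WT soleus and 8.35, 8.22 and 8.27 in WT quadriceps, a difference of -0.53 (adjusted p = 0.00028). Both were lower on every soleus array. Acsl5 was at 0.11 (adjusted p = 0.28). Acad10 was higher in soleus by 0.24 (adjusted p = 0.0054). Acad11, at 0.12, and Acaa1a, at 0.05, were the other genes not called (adjusted p = 0.17 and 0.62).

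KO mice gave nearly the same map. In KO soleus minus KO quadriceps, 29 of the 36 genes were called, 27 higher and 2 lower, where 41.9% of all genes were called, 21.9% as higher and 20% as lower. All 29 were called the same way in WT mice, Acacb and Acad10 were called in WT alone, and 5 genes, Acsl5, Cpt1a, Crat, Acad11 and Acaa1a, were called in neither. A call in 1 genotype alone does not show that the genotypes differ, and the test of that difference called no gene. The median was 0.71 in KO, against 0.0094 over all genes. Cd36 differed by 1.24 (SE 0.05, 2.37-fold), Acadl by 0.98 (1.97-fold), Etfdh by 1.01 (2.01-fold) and Hadhb by 0.97 (1.96-fold). For 24 of the 27 genes higher in both genotypes the difference was smaller in KO than in WT, and Acaca, Acads and Acot1 were the exceptions. KO minus WT of this difference is the contrast of effects given above, so the count restates that contrast. There 29 of the 36 genes lay below 0, against 56.9% of all genes above 0, and no gene was called. Acot1 lay below the tested level on every quadriceps array, so its differences have no firm size to compare. Acot13, at 0.18 (adjusted p = 0.013), lost its call without KO soleus replicate 2 (0.062) or KO quadriceps replicate 2 (0.055). The mean of Acot1 in KO soleus was 1.53-fold above the tested level.

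**Figure D4:**
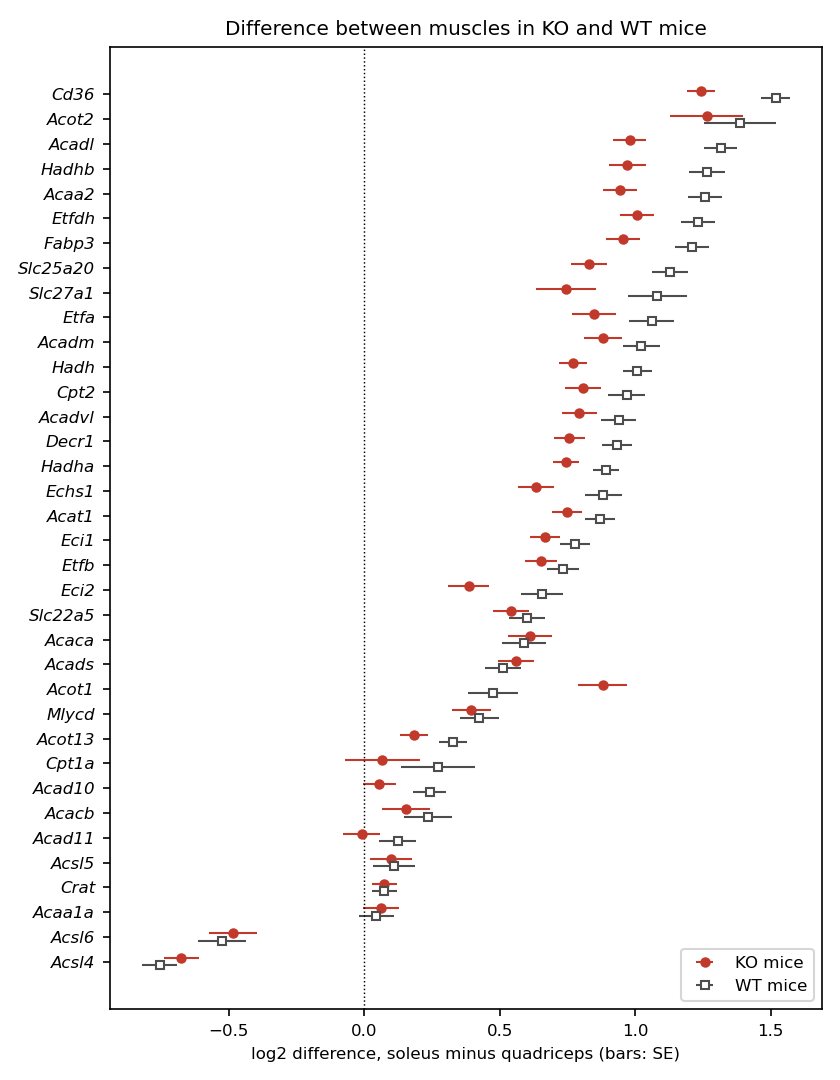
Points are log2 differences of soleus minus quadriceps for the 36 genes, in KO mice (red circles) and WT mice (open squares), with bars of the standard error and genes in the order of the WT difference. Acsl4 and Acsl6 lie below 0 in both, and Cd36 lies at 1.24 in KO mice and 1.52 in WT mice.

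Vehicle heart stood above both WT muscles for most of the pathway. These contrasts set a second experiment against the first, so tissue and experiment cannot be told apart in them. Vehicle heart minus WT quadriceps called 34 of the 36 genes, 31 higher and 3 lower, where 63.1% of all 13373 genes tested were called, 31.9% as higher and 31.2% as lower, and the median was 1.08, against 0.030 over all genes. Vehicle heart minus WT soleus called 28, 23 higher and 5 lower, where 56.8% of all genes were called, 29.6% as higher and 27.2% as lower, and the median was 0.29, against 0.035 over all genes.

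The order of the 3 groups was counted for the listed genes alone, without a share over all genes, and the 3 contrasts share groups. By group means, 27 genes ran heart over soleus over quadriceps, and in 19 of these all 3 differences were called. Cd36 (3.38-fold over quadriceps and 1.18-fold over soleus) and Hadhb (3.31-fold and 1.38-fold) are examples, as are Cpt2 (3.18-fold and 1.63-fold) and Etfdh (3.12-fold and 1.33-fold). Hadhb read 12.85, 12.84 and 12.88 in vehicle heart, above all 6 WT muscle arrays. All 7 genes from hydration to thiolysis and all 3 electron transfer genes were higher in heart than in either muscle. Cpt1a, Acad11, Acsl5 and Acaa1a were higher in heart than in either muscle but not called between the muscles. Cpt1a read 9.74, 9.65 and 9.72 in vehicle heart, against 8.76, 8.89 and 8.86 in WT soleus and 8.58, 8.33 and 8.78 in WT quadriceps. Fabp3, Acad10 and Eci2 were called higher in heart than in quadriceps but not than in soleus. The mean of Acot1 in vehicle heart was 2.26-fold above the tested level, under which its quadriceps arrays lay.

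In 6 genes, Slc27a1, Slc22a5, Slc25a20, Acacb, Mlycd and Acadm, the mean was highest in soleus, then heart, then quadriceps. Slc27a1 was clearest, with 10.37, 10.40 and 10.42 in vehicle heart, against 10.98, 11.31 and 11.04 in WT soleus and 10.22, 9.91 and 9.94 in WT quadriceps. It was lower in heart than in soleus, at -0.71 (0.61-fold), and higher than in quadriceps, at 0.37 (adjusted p = 0.013, 0.056 without WT quadriceps replicate 2). Slc25a20 followed it, at -0.27 against soleus and 0.86 against quadriceps. Slc22a5, Acacb, Mlycd and Acadm were not called between heart and soleus. Their adjusted p there ran from 0.20 to 0.75, which does not show equal levels.

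The 3 genes lower in heart than in quadriceps were Acaca, Acsl4 and Acsl6. Acaca, on chr11:84129635-84401651, read 7.19, 7.46 and 7.22 in vehicle heart, against 8.59, 8.77 and 8.68 in WT soleus and 8.06, 8.24 and 7.97 in WT quadriceps, with differences of -1.39 against soleus and -0.80 against quadriceps. Its second probe set kept heart lowest, at 5.75 to 6.54 in vehicle heart, 7.83 to 8.18 in WT soleus and 7.27 to 7.41 in WT quadriceps. Acsl4 read 8.05, 7.76 and 7.99 in vehicle heart, -0.84 against soleus and -1.59 against quadriceps, and Acsl6 lay at -0.45 and -0.97. Both synthetases thus ran quadriceps over soleus over heart. Crat, on chr2:30400476-30416017, was the one gene with no call in any of the 3 contrasts, with all 18 arrays between 12.47 and 12.66. Its arrays still did not overlap between the groups of any of these contrasts, with heart highest and quadriceps lowest. Its heart minus quadriceps difference of 0.11 (adjusted p = 0.075) was called under a trended and robust prior (0.022) and with array weights (0.045).

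Some small calls of heart minus soleus did not hold in every repeat with 1 array left out. Acaa2 at 0.20, Acat1 at 0.20, Echs1 at 0.20, Acsl5 at 0.31 and Acot2 at 0.36 each lost the call when 1 array was left out. Acaa2 did so without WT soleus replicate 2 or vehicle heart replicate 2 (adjusted p = 0.051 and 0.073), and Acat1 without vehicle heart replicate 3 (0.066). Acsl5 did so without WT soleus replicate 2 or vehicle heart replicate 1 (0.062 and 0.099). Acot2 lost it without replicates 1 or 3 of WT soleus or 1 or 2 of vehicle heart, and Echs1 without replicates 1 or 3 of WT soleus or 2 or 3 of vehicle heart, with adjusted p between 0.051 and 0.097. The differences in those repeats were 0.31 to 0.37 for Acot2 and 0.18 to 0.19 for Echs1, close to those with all arrays. In heart minus quadriceps, Mlycd at 0.28 (adjusted p = 0.017) lost the call without WT quadriceps replicate 3 (0.076) or vehicle heart replicate 2 (0.13).

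**Figure D5:**
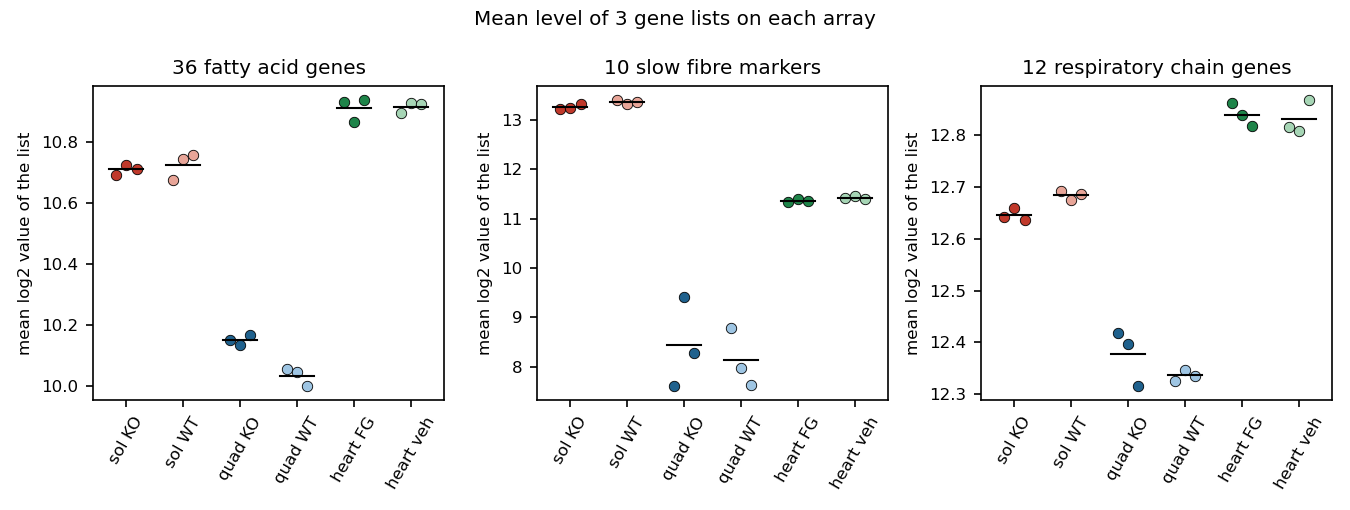
Each point is the mean log2 value of a gene list on 1 array and each line a group mean, for the 36 listed genes, 10 slow fibre genes and 12 respiratory chain genes, with group names shortened as sol, quad, FG and veh. The mean of the listed genes is 10.15 in KO quadriceps and 10.03 in WT quadriceps, where the arrays do not overlap, while in soleus and heart they do. The slow fibre mean varies most among the quadriceps arrays.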

How the data were processed

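Total RNA of 18 mouse tissue samples was read on Affymetrix whole-transcript arrays. The authors deposited log2 values from RMA (background correction, quantile normalization, summary of probes), per the submitters' processing notes, which do not name a version or the arrays normalized in 1 run. Arrays have no read depth, so 3 arrays per group limit precision.

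Of 35556 probe sets, 21789 named exactly 1 gene. Symbols were updated through gene identifiers to GRCm38.p6 for 21698. Genes whose mean over the fitted arrays lay under the 40th percentile of probe sets (6.19 in muscle, 6.26 in heart, 6.23 over all) were not tested, and all 36 measured members passed. limma 3.58.1 in R 4.3.3 fitted the 12 muscle arrays by 4 group means with a random block for animal (correlation 0.17), the 6 heart arrays alone, and all 18 arrays for heart against muscle (0.20), with Benjamini-Hochberg adjustment. Deviations of the 6 pairs that share an animal number correlated at r between -0.00048 and 0.38, 4 of them above 0.1. The code was tested on simulated data. Where all arrays of a group lay below the tested level, the fold sets the mean of the other group against that level. It carries no interval, and the level is a filter and not a limit of detection.

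All 36 members are named. The rule for values by array was the called members, at most 8 with the largest change, or else the 5 with the lowest p, and from the wider list up to 4 called genes. Heart against muscle and KO soleus against KO quadriceps show fewer of these by array, and further members, Ppard, Angptl4 and single endothelial genes were added after their values were seen. The members, lists, motifs and tests were chosen with earlier results of these data known. Alternatives were no filter, repeated quantile normalization, the mean of probe sets, a trended robust prior, array weights, other blocks, covariates, the compared arrays alone and each array left out. The respiratory chain covariate was chosen after seeing the data.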

Additional observations from a re-analysis of the deposited data

How the results depend on the processing

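The count of listed genes called in quadriceps KO minus WT, 1 in the reported fit, was 0 with no filter on low values, with the replicate number as a fixed replicate block, with the slow fibre mean or the respiratory chain mean as a covariate and with the 6 quadriceps arrays alone. It was 0 to 0 when each array was left out in turn, and 2 with a trended and robust prior. It was 1 in the other 4 alternatives. The median there lay between 0.11 and 0.14 and the number of genes above 0 between 27 and 32 in all 16 alternatives. In soleus, averaged over muscles, for the difference of effects and in heart the count was 0 in every alternative run. It ran from 30 to 32 between WT muscles, 28 to 29 between KO muscles, 26 to 29 for heart minus soleus and 33 to 35 for heart minus quadriceps. The number of genes above 0 ran from 10 to 18 in soleus and from 14 to 20 in heart, so small differences there changed sign. Among the genes repeated singly, which are those with an unadjusted p under 0.05 or among the 5 lowest p of a comparison and a few of the wider list, none changed sign, and 43 repeats lost a call and 7 gained one, against 2645 that stayed on the same side of the threshold. Samples that share a replicate number deviated together at r of 0.035, 0.048 and -0.12 in soleus, -0.29, -0.21 and 0.079 in quadriceps and 0.18, 0.11 and -0.13 in heart. Arrays that share an animal number ran from -0.00048 to 0.38, which overlaps these values. The correlations therefore cannot decide whether the replicate numbers pair samples. The replicate block changed the count by over 1.5 times in quadriceps alone. The cause of these moves was not tested.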

Other observations

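A wider list of 47 genes around the pathway held 42 with a probe set of their own, and 39 of these were tested. In heart, 1 of the 39 was called between FG-4497 and vehicle, where 1.77% of all genes were. This was Fabp5, a fatty acid binding protein of skin, fat and endothelium, with 9.09, 9.35 and 9.44 in FG-4497 hearts and 8.77, 8.65 and 8.58 in vehicle hearts. The difference was 0.63 (SE 0.10, adjusted p = 0.013), and every FG-4497 array was above every vehicle array. The adjusted p was between 0.051 and 0.063 when FG-4497 replicate 2 or 3 or vehicle replicate 2 or 3 was left out. Ppard, a nuclear receptor that responds to fatty acids, was at 0.43 (adjusted p = 0.053) and Angptl4, a secreted inhibitor of lipoprotein lipase, at 0.59 (adjusted p = 0.27). Without FG-4497 replicate 1 both passed the threshold, Ppard at 0.52 (adjusted p = 0.031) and Angptl4 at 0.86 (adjusted p = 0.015). Ppard also passed with a trended and robust prior (0.0053) and with array weights (0.041). The mean of 8 endothelial genes was 10.23 to 10.33 in FG-4497 hearts and 10.12 to 10.17 in vehicle hearts, and its part in the Fabp5 difference was not tested. Of these 8, 1 was called, Cldn5, a tight junction protein of endothelium, at 1.44 (adjusted p = 0.00016), and the median difference of the 8 was -0.0053, with Cdh5 at -0.12 and Emcn at -0.19. In soleus and quadriceps, KO minus WT called 0 of the 39, with 1 and 8 at an unadjusted p under 0.05, against 7.23% and 11.6% of all genes. The 8 in quadriceps were 5 higher and 3 lower. Higher were Lpl at 0.30, Plin5 at 0.27, Fabp4 and Ppara at 0.25 and Mcee at 0.11. Lower were Decr2 at -0.20, Pcca at -0.16 and Acot7 at -0.13. Of the 39, 19 lay above 0 in quadriceps with a median of -0.0067, and of the 36 listed genes 30 did with a median of 0.12. Both lists were chosen with earlier results of these data known, so setting them side by side is no test of the listed genes.

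Between WT muscles, 22 of the 39 were higher and 4 lower in soleus, where 21.3% of all genes were called higher and 24.4% lower. Bdh1, an enzyme of ketone body use, read 11.18, 11.02 and 10.97 in WT soleus and 7.58, 7.18 and 7.40 in WT quadriceps, a difference of 3.67. Lpl, which frees fatty acids from lipoproteins, differed by 2.07, the receptor gene Ppara by 1.83 and Esrrg, an estrogen-related receptor, by 2.42. In vehicle heart minus WT quadriceps 25 were higher and 5 lower, where 31.9% and 31.2% of all genes were. Ucp3, the uncoupling protein of skeletal muscle, was lowest in heart, at 8.49, 8.75 and 8.50 in vehicle heart, against 10.20, 10.37 and 10.33 in WT soleus and 11.16, 10.56 and 10.98 in WT quadriceps. Ech1, a dienoyl-CoA isomerase, was highest in heart, at 2.12 over quadriceps and 1.02 over soleus.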
